A study of Mus musculus with 3 samples.

Results

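Collagen genes encode the alpha chains of the collagens, and 44 genes of the deposited matrix carry a symbol of the form Col, number, a, number. The matrix lists 31730 genes, of which 25226 had at least 10 unique molecular identifiers (UMIs, counted molecules) over all cells, as had all 44 collagens. By class they were 11 fibrillar chains, 9 network chains, 9 fibril-associated (FACIT) chains, 6 beaded-filament chains, 4 transmembrane chains, 2 multiplexins and 3 others. The 44 were taken by symbol and not by any measured value, though with earlier results of these data known.

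The cells came from lungs of mouse pups with the genotype Fgf18CreERT2/+, ROSATDTomato/+ and PdgfrαEGFP/+, which all 3 groups shared. Tamoxifen was given from postnatal day 2 to day 5 and the lungs were taken at day 7. Cells were sorted on both reporters, and each of 3 gates gave 1 droplet library: GFP-low tdT-negative (called GFP-low below), GFP-high tdT-negative (called GFP-high unmarked) and GFP-high tdT-high (called marked). GFP reports the Pdgfra locus, and tdTomato marks cells (and their descendants) in which the Fgf18 locus drove the tamoxifen-dependent Cre, so a tdT-negative cell may also be one in which Cre did not act.

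Each gate had 1 library, so no difference between gates has a replicate and no test between gates was possible. The intervals below (95%) cover counting error only. The GFP-low library held 1284 cells, the GFP-high unmarked library 3347 and the marked library 1511, with a median of 19629 to 22401 UMIs per cell. Every library held cells with Xist UMIs alone (326 to 744 cells) and cells with Y-linked UMIs alone (651 to 2060 cells), so each came from more than 1 pup. Cells sorted as tdTomato-positive without GFP are not analysed here. Pairs of libraries shared 3, 0 and 1 cell barcodes. The authors' 10 cell type names were used as deposited, and the parts IMR, Int, Ter, Im and Cuff of these names are used without being spelled out. Known marker genes were read in them: Dcn stood at 2674 and 6117 CPM (UMIs per 1000000 UMIs of the group) in AdvFB of the GFP-low and GFP-high unmarked libraries, Tcf21 at 858 and 1051 in MatFB-Type 1 and MatFB-Type 2, and Tgfbi at 1084 to 2670 in the MyoFB types. These genes are not particular to one name, since Tgfbi also stood at 1069 to 1330 CPM in the DivFB types and Tcf21 at 1071 and 478 CPM in MatFB-Im,Cuff of the GFP-low and GFP-high unmarked libraries. Of other listed MyoFB markers, Acta2 stood at 840 to 3586 CPM in the MyoFB types and at no more than 189 in the MatFB types. Hhip and Pdgfra did not separate them. Hhip was at 85.3 CPM in MyoFB-IMR of the GFP-high unmarked library, against 371 and 384 in MatFB-Type 1 and MatFB-Type 2 of the GFP-low library. Pdgfra was at 2.09 CPM in MyoFB-Ter of the GFP-low library, against 188 in its MatFB-Im,Cuff cells. AdvFB of the GFP-low library also held the myofibroblast and smooth muscle gene Acta2 at 1485 CPM, against 35.0 in AdvFB of the GFP-high unmarked library. Epcam, Ptprc and Acan stayed at or below 4.35 CPM in every group of at least 20 cells, while the endothelial marker Pecam1 was at 1.88 to 34.0 CPM, highest in MyoFB-IMR of the marked library. Doublets were not removed here, and the part of free RNA in the levels was not tested. In the GFP-low library, MatFB-Type 1 held 4.57 CPM of Col14a1 and AdvFB held 1767. The ratio of Col1a1 to Col14a1 was 204 in the former and 7.24 in the latter. No estimate of free RNA was made from these values.

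Collagens assemble as triple helices of 3 alpha chains. Types I, III and V form the banded fibrils that carry tension, type IV forms the sheet of basement membranes, type VI forms beaded filaments beside cells, the FACIT chains sit on fibril surfaces, and the transmembrane collagens span the plasma membrane of the cell that makes them. In the lung after birth, fibroblasts of the airway and vessel sheath and of the alveolar wall make most of this matrix while the air sacs are subdivided.

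A few collagen genes are direct neighbours. Col4a6 (chrX:141165403-141474076, GRCm38, minus strand) and Col4a5 (chrX:141475385-141689234, plus strand) stand head to head, with 1.308 kb between the gene models and 1343 bases between their RefSeq start sites. The bases before both starts are shown as those of a head-to-head pair. The levels of these 2 genes were both high in some groups of cells and parted in others, as described under the network collagens. Capitals mark a CCAAT box (CCAAT or its reverse complement) in the first and a GC box (GGGCGG or its reverse complement) in the second, and the windows are chrX:141475169-141475384 on the plus strand and chrX:141474077-141474326 on the minus strand (RefSeq, GRCm38.p6). The Col4a5 stretch stops at position -35 from its start, where the gene model begins, and a GC box at positions -30 to -25 lies beyond it, so that both promoters hold a GC box.
Col4a5: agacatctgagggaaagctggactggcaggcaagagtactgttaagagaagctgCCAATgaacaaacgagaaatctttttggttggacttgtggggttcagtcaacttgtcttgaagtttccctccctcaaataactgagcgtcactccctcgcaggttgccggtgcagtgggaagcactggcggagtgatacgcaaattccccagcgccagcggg
Col4a6: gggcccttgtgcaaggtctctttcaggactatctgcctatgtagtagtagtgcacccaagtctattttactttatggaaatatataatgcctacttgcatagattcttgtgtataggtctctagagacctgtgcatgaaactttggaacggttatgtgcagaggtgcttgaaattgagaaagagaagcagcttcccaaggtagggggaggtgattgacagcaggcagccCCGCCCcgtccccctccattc

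Over the 38 RefSeq promoter windows of 35 collagens (250 bases before to 50 after a start), a GC box was found in 23, or 60.5%, against 35.7% of all 32851 windows of that length. A CCAAT box was found in 34.2% against 37.4%, and a TATA box (TATAAA) in 13.2% against 13.6%, on either strand. A CArG box, the motif named for serum response factor, was found in 1 window, or 2.63%, against 1.63% of all windows. That window belongs to Col6a4 (chr9:105989454-106096783, minus strand), a beaded-filament chain. It is shown for chr9:106096784-106096941 on the minus strand, with the CArG box, 1 CCAAT box and 2 GC boxes in capitals. A match describes letters in a window and is not a measured binding site.
Col6a4: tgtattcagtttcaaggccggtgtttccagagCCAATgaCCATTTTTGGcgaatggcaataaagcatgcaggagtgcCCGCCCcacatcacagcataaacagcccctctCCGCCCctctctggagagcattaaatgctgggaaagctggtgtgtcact

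Collagens took 1.40% of all UMIs in the GFP-low library, 1.58% in the GFP-high unmarked library and 1.08% in the marked library. Col1a1, Col1a2 and Col3a1 together made up 68.4%, 72.4% and 57.9% of these collagen UMIs in the same order. Of the 44 genes, 15 had a mean level over the 3 libraries of at least 100 CPM, 21 of at least 20 CPM and 27 of at least 5 CPM. The remaining 17 were below 5 CPM. On the scale of CPM per exonic kb, the leading genes were Col3a1 (407), Col1a1 (363), Col1a2 (219), Col4a1 (117) and Col6a1 (80.7). This scale is used to order genes and, since the libraries read the 3′ ends of transcripts, a long gene model lowers it without lowering the count.

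**Figure D1:**
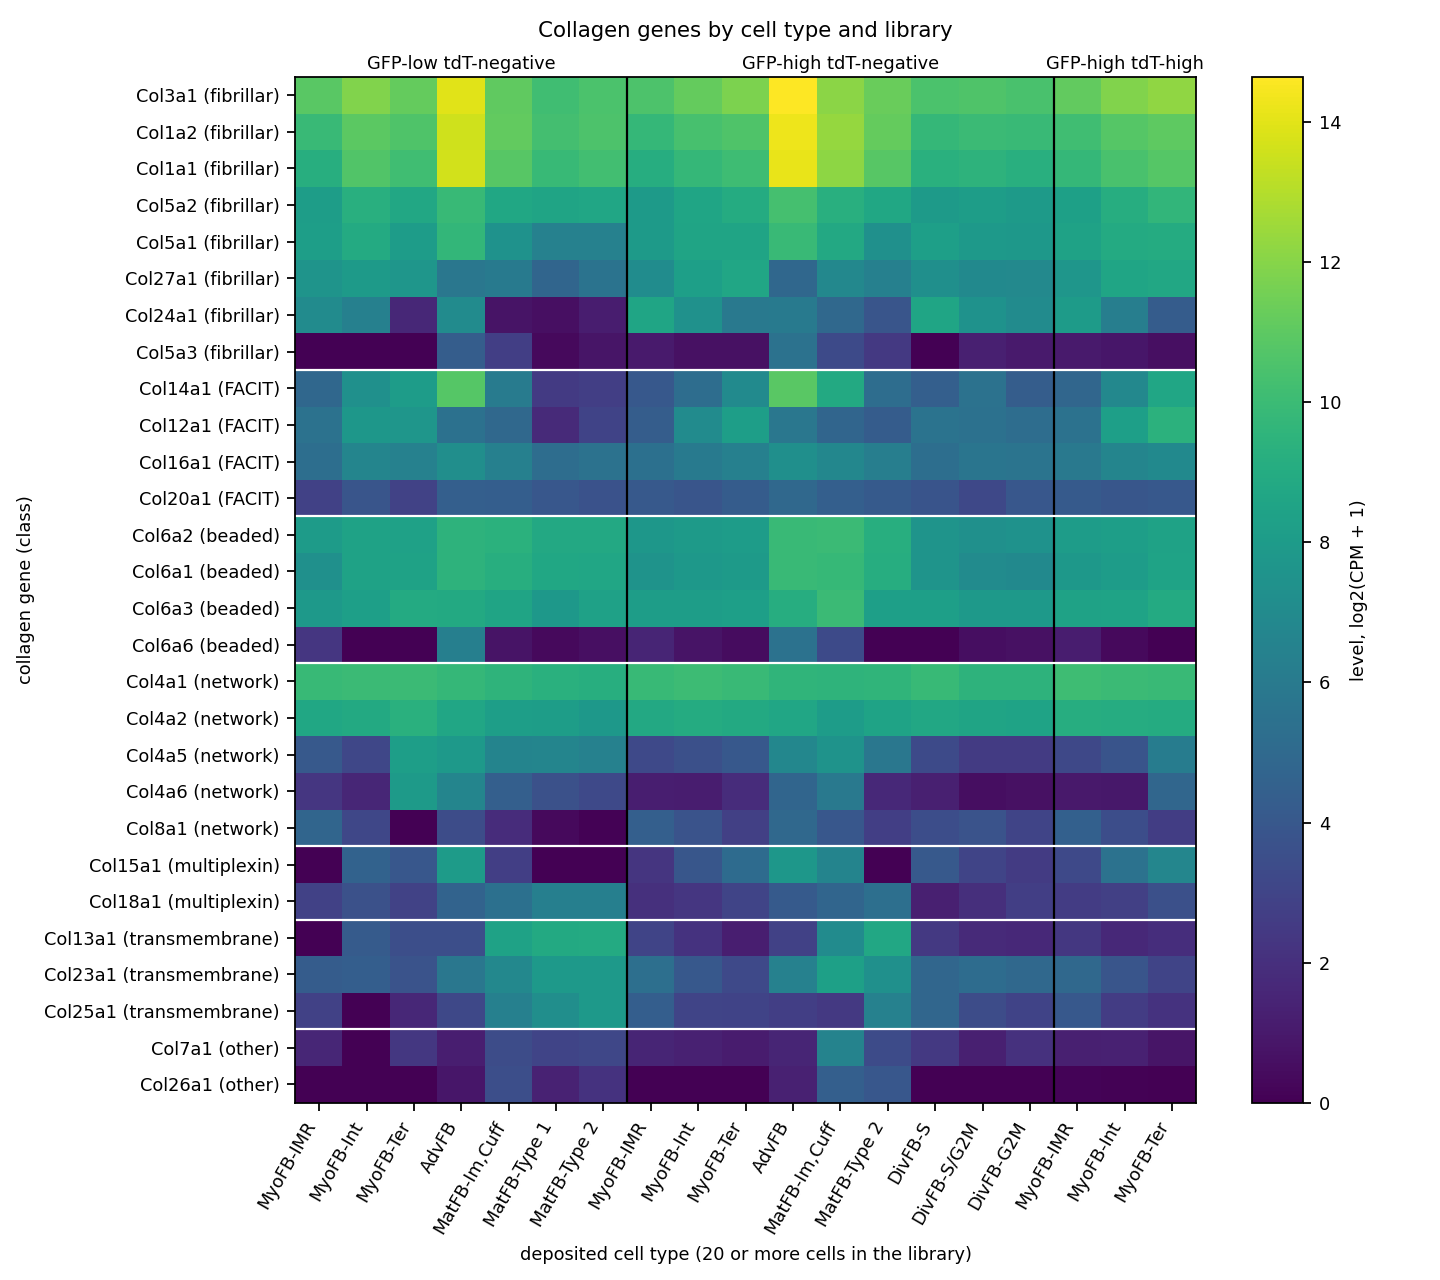
Level of the 28 collagen genes that reached 20 CPM in at least 1 group, as log2(CPM + 1) (colour), by class (rows) and by deposited cell type in each library (columns, 20 or more cells). AdvFB columns hold the highest Col1a1, Col1a2, Col3a1 and Col14a1 levels, MatFB columns the highest Col13a1 and Col25a1, and Col4a1 spans 1.90-fold over the 12 groups of at least 100 cells.

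The share of UMIs in collagens differed more between cell types than between libraries. It was 4.94% and 7.24% in AdvFB of the GFP-low and GFP-high unmarked libraries. In MatFB-Im,Cuff it was 1.04% and 2.08%, and in MatFB-Type 1 and MatFB-Type 2 of the GFP-low library 0.694% and 0.788%. The dividing types were low, with 0.637% in DivFB-S, 0.597% in DivFB-S/G2M and 0.555% in DivFB-G2M, near the 0.625% of MyoFB-IMR in the same library. AdvFB cells gave 11.96% of all UMIs but 54.7% of the collagen UMIs of the GFP-high unmarked library, 13.8% and 48.9% in the GFP-low library, and 0.354% and 1.14% in the marked library, which had 4 such cells.

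The classes were mixed differently in each type. Fibrillar chains made up 91.2% of the collagen UMIs in AdvFB of the GFP-high unmarked library and 54.7% in MatFB-Type 1. Transmembrane chains made up 12.5% and 12.2% in MatFB-Type 1 and MatFB-Type 2 of the GFP-low library, and under 1.1% in each MyoFB type of every library. Network chains made up 22.7% in MyoFB-IMR of the GFP-high unmarked library and 1.88% in AdvFB of that library.

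**Figure D2:**
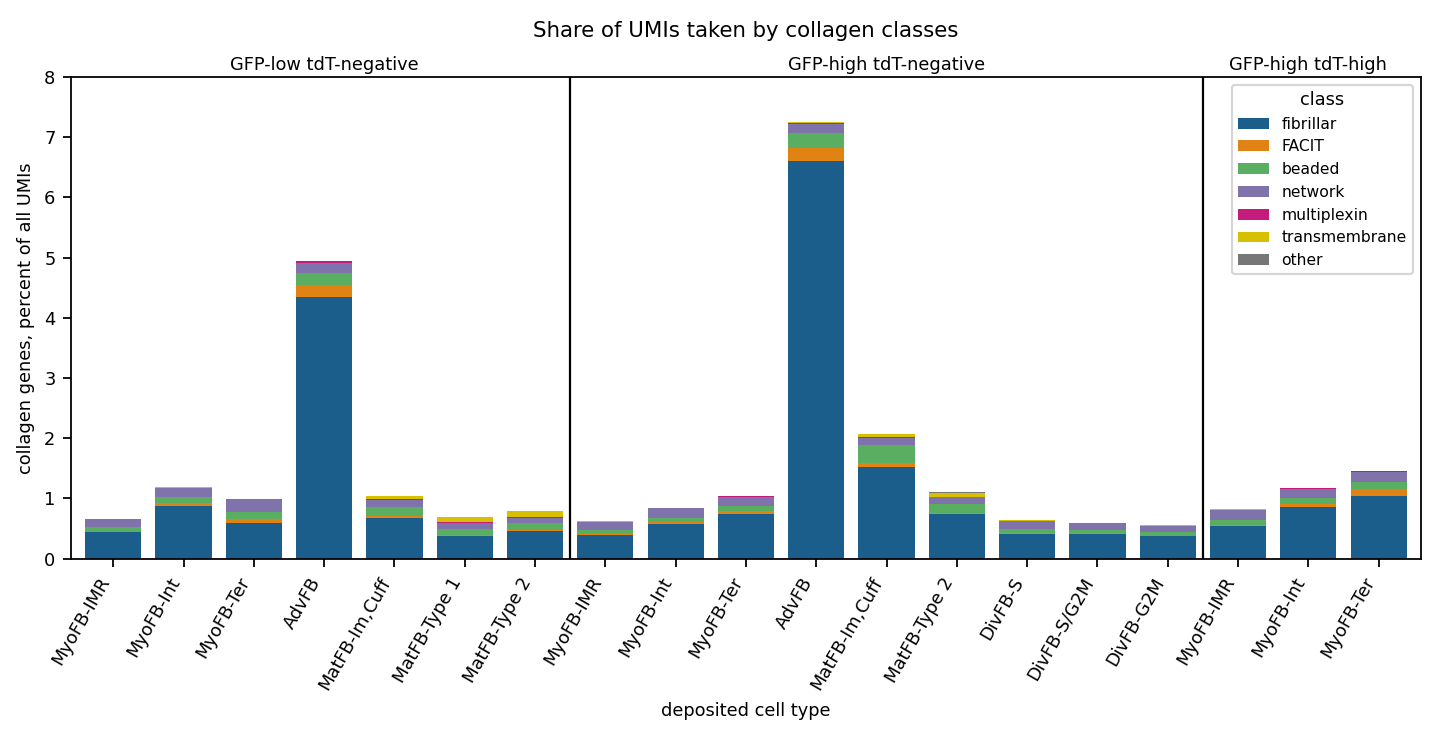
Percent of all UMIs taken by each collagen class (stacked bars) in each deposited cell type with 20 or more cells, by library. AdvFB bars reach 4.94% and 7.24%, every other bar stays at or below 2.08%, and the transmembrane part is visible in the MatFB bars.

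The major fibrillar chains were highest in AdvFB in both libraries that held at least 20 of these cells. Col1a1 (chr11:94936224-94953042), a chain of type I collagen, stood at 12793 CPM (GFP-low) and 18483 CPM (GFP-high unmarked) there, and its lowest level among the 12 groups of at least 100 cells was 550 CPM in MyoFB-IMR of the GFP-high unmarked library, 33.6-fold lower than the highest. Col1a2, the partner chain, stood at 12509 and 19482 CPM in AdvFB. Col3a1, the chain of type III collagen, stood at 16178 and 25624 CPM. The ratio of the 2 type I chains varied less than that of Col3a1 to Col1a1. Col1a2 to Col1a1 ranged from 0.978 to 1.64 over 19 groups, with a median of 1.29, while Col3a1 to Col1a1 ranged from 0.976 to 3.30. The former still differed beyond counting error. It was 0.978 (0.965 to 0.991) in AdvFB of the GFP-low library and 1.57 (1.53 to 1.61) in MyoFB-IMR of the GFP-high unmarked library. The type V chains Col5a1 and Col5a2, which help to start fibrils, were also highest in AdvFB (987 and 1297 CPM in the GFP-high unmarked library), and Col5a3 was read at 19.3 and 44.2 CPM in AdvFB and at no more than 8.69 CPM elsewhere.

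Unlike types I and III, the 2 minor fibrillar chains Col24a1 and Col27a1 were not highest in AdvFB of the GFP-high unmarked library. Col24a1 (chr3:145292472-145552011, plus strand) was highest in DivFB-S (387 CPM, interval 342 to 436, 28 cells) and MyoFB-IMR (383 CPM, 374 to 391) of the GFP-high unmarked library, which did not differ beyond counting error. In the GFP-low library it was highest in AdvFB (133 CPM) and MyoFB-IMR (131 CPM). It was at 0.537 CPM in MatFB-Type 1 and 1.30 CPM in MatFB-Type 2 of that library. After each cell was thinned to 5000 UMIs, 71.6% of MyoFB-IMR cells of the GFP-high unmarked library still had a Col24a1 UMI (93.4% before thinning), against 0.307% of MatFB-Type 2 cells of the GFP-low library (1.84% before thinning). The median depths of these groups were close, 19460.5 and 19471 UMIs. Col27a1 was highest in MyoFB-Ter of the GFP-high libraries (405 and 443 CPM) and lowest in MatFB-Type 1 (26.9) and AdvFB of the GFP-high unmarked library (28.7). Col11a1, a cartilage-type fibrillar chain, reached 17.7 CPM in AdvFB of the GFP-low library, and Col2a1 and Col11a2 stayed at or below 12.05 and 3.37 CPM.

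Among the FACIT chains, Col14a1 and Col12a1 were highest in different cells, but both were read in MyoFB-Ter. There Col14a1 stood at 272 and 410 CPM and Col12a1 at 203 and 670 CPM in the GFP-low and marked libraries. Col14a1 (chr15:55307750-55520803) stood at 1767 and 1926 CPM in AdvFB and at 4.57 and 5.57 CPM in MatFB-Type 1 and MatFB-Type 2 of the GFP-low library, a 422-fold span between the extremes of the 12 larger groups. Col12a1 (chr9:79598991-79718831, minus strand) was highest in MyoFB-Ter of the marked library (670 CPM) and stood at 2.42 CPM in MatFB-Type 1. Both genes overlap antisense transcripts in the annotation, with 57 UMIs or fewer listed for each. Col16a1 was more even, from 36.5 CPM in MatFB-Type 1 to 158 CPM in AdvFB of the GFP-high unmarked library, and Col20a1 stayed between 6.02 and 29.3 CPM. The multiplexins, found in basement membrane zones, were also split: Col15a1 was highest in AdvFB (261 and 211 CPM) with no UMI in MatFB-Type 1 or MatFB-Type 2 of the GFP-low library, where a count of 0 allows up to 0.806 and 0.229 CPM. Col18a1, the source of endostatin, was highest in those 2 types, at 80.1 CPM in each.

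The basement membrane chains Col4a1 and Col4a2 were the most evenly spread of the abundant collagens. Of the 21 genes with a mean of at least 20 CPM, 14 differed more than 10-fold between the highest and lowest of the 12 larger groups and 1 less than 2-fold. That gene was Col4a1, from 575 CPM in MatFB-Type 2 (GFP-low) to 1092 CPM in MyoFB-IMR (marked), a ratio of 1.90. The spread of other genes over these groups was not computed. These counts therefore order the collagens among themselves and do not set them apart from genes of similar level. Col4a2 spanned 2.51-fold, and Col4a1 to Col4a2 stayed between 1.60 and 2.67 over 19 groups. Their start sites lie 21 bases apart on opposite strands, and Col4a1 overlaps an antisense transcript, Gm15418, with 2851 UMIs of its own. No source used here says whether the counting used strand.

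Col4a5 and Col4a6, the chains of a smooth muscle type of type IV collagen, were both high in a few groups but not always together. MyoFB-Ter of the GFP-low library (23 cells) held 295 CPM of Col4a5 and 249 CPM of Col4a6, and AdvFB of that library held 237 and 100 CPM. MyoFB-Ter of the marked library held 69.4 and 27.4 CPM, and MatFB-Im,Cuff of the GFP-high unmarked library 186 and 60.4 CPM. The pair parted in MatFB-Type 1 and MatFB-Type 2 of the GFP-low library, where Col4a5 was at 100 and 86.4 CPM but Col4a6 at 11.3 and 8.54 CPM. Over the 14 groups with at least 50 UMIs of both genes together, the ratio of Col4a5 to Col4a6 UMIs ranged from 1.18 in MyoFB-Ter of the GFP-low library to 24 in MatFB-Type 2 of the GFP-high unmarked library, where it rests on 48 against 2 UMIs (interval 6.29 to 204). Summed markers of smooth muscle (6 genes, none at 0 in these groups) were 4279 CPM in MyoFB-Ter and 687 CPM in AdvFB of the GFP-low library, and 987 CPM in MyoFB-Ter of the GFP-high unmarked library, where Col4a5 stood at 15.1 and Col4a6 at 2.64 CPM. In MatFB-Im,Cuff of the GFP-high unmarked library, Acta2 stood at 82.1 CPM, against 3586 CPM in MyoFB-Ter of the GFP-low library. High levels of the pair thus did not always go with high Acta2. The part of smooth muscle cells in these levels was not tested. Col8a1, a short-chain network collagen, reached 30.1 CPM in AdvFB of the GFP-high unmarked library, but 16 of its 328 cells, all in 1 cluster, held it at 928 CPM and the other 312 at 1.00 CPM.

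The 3 main type VI chains were present in every type. Col6a1 and Col6a2, neighbours on 1 strand of chromosome 10, ranged from 125 to 966 and from 161 to 1000.5 CPM, and their ratio stayed between 0.611 and 1.06. Col6a3 was highest in MatFB-Im,Cuff of the GFP-high unmarked library, at 1013 CPM. The minor chains were restricted: Col6a6 was highest in AdvFB (78.2 and 45.4 CPM), and Col6a4 was at 3.37 to 17.3 CPM over the MyoFB and DivFB groups and at no more than 1.12 CPM in any AdvFB or MatFB group. Col6a5 did not pass 2.68 CPM.

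The transmembrane chains Col13a1, Col25a1 and Col23a1 were highest in MatFB groups in the 2 libraries that held such groups. Col13a1 (chr10:61838236-61979108, minus strand) stood at 481 CPM in MatFB-Type 1 and 494 CPM in MatFB-Type 2 of the GFP-low library, and at 445 CPM in the 44 MatFB-Type 2 cells of the GFP-high unmarked library. Its level in the MyoFB groups of the 2 GFP-high libraries was 1.32 to 7.02 CPM. After thinning, 88.0% of MatFB-Type 2 cells of the GFP-low library had a Col13a1 UMI (99.2% before) against 3.20% of MyoFB-IMR cells of the GFP-high unmarked library (9.69% before). Col25a1 stood at 228 CPM in MatFB-Type 2 and 150 CPM in MatFB-Type 1. Col23a1 stood at 237 and 231 CPM there and was highest in MatFB-Im,Cuff of the GFP-high unmarked library, at 318 CPM. Col17a1, the hemidesmosome collagen of epithelia, did not pass 8.77 CPM. Among the rest, Col7a1, the anchoring fibril chain, was at 92.7 CPM in MatFB-Im,Cuff of the GFP-high unmarked library and at no more than 9.48 CPM in any other group, and Col26a1 reached 20.3 CPM in that group.

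The other low members were Col4a4, Col8a2, Col22a1, Col9a2, Col9a3, Col4a3, Col10a1, Col19a1, Col28a1 and Col9a1. The highest of them in any group was Col4a4, at 17.0 CPM in AdvFB of the GFP-high unmarked library, followed by Col9a2 at 16.7 CPM in the 23 MyoFB-Ter cells of the GFP-low library. Col9a1, Col19a1 and Col28a1 stayed below 2 CPM in every group.

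The first comparison asked how collagens differ along the 3 MyoFB types in each GFP-high library. In both libraries Col12a1, Col14a1, Col15a1, Col27a1, Col3a1 and Col1a1 were higher in MyoFB-Ter than in MyoFB-IMR, with MyoFB-Int between, and Col24a1, Col23a1 and Col25a1 were lower. A gene is counted as higher or lower from a 1.5-fold ratio of CPM + 1, among genes with a mean of at least 5 CPM over both groups. A gene can meet that minimum through its higher group alone. Col12a1 stood at 19.2, 131 and 299 CPM in MyoFB-IMR, MyoFB-Int and MyoFB-Ter of the GFP-high unmarked library and at 44.4, 310 and 670 CPM in the marked library, so that MyoFB-Ter was 15.6-fold (13.9 to 17.4) and 15.1-fold (13.7 to 16.7) above MyoFB-IMR. Col14a1 stood at 15.7, 37.2 and 129 CPM and at 27.9, 115 and 410 CPM, ratios of 8.24 and 14.7. Both chains sit on the surface of fibrils. Col15a1 stood at 3.88, 14.1 and 34.5 CPM and at 8.40, 44.4 and 106 CPM, ratios of 8.89 and 12.6.

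The major fibrillar chains differed less between the MyoFB types than these chains did. Col3a1 stood at 1506, 2328 and 3394 CPM and at 2248, 3810 and 4730 CPM, ratios of 2.25 and 2.10, and Col1a1 had ratios of 2.00 and 2.01. Col27a1 stood at 140, 310 and 405 CPM and at 210, 396 and 443 CPM. Col24a1 showed the reverse order, 383, 166 and 60.5 CPM and then 266, 76.0 and 17.9 CPM, so that MyoFB-Ter was 6.33-fold (5.66 to 7.10) and 14.9-fold (11.7 to 19.2) below MyoFB-IMR. Col23a1 (39.2, 15.3 and 8.48 CPM, then 30.1, 13.7 and 6.99 CPM) and Col8a1 (20.3, 12.3 and 5.84 CPM, then 21.6, 10.0 and 5.44 CPM) had that order too. Col4a1 was level, at 926, 1047 and 957 CPM and at 1092, 1013 and 968 CPM. Network chains accordingly took a smaller part of the collagen UMIs from MyoFB-IMR over MyoFB-Int to MyoFB-Ter: 22.7%, 18.9% and 14.2% in the GFP-high unmarked library and 20.7%, 13.6% and 11.01% in the marked library.

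**Figure D3:**
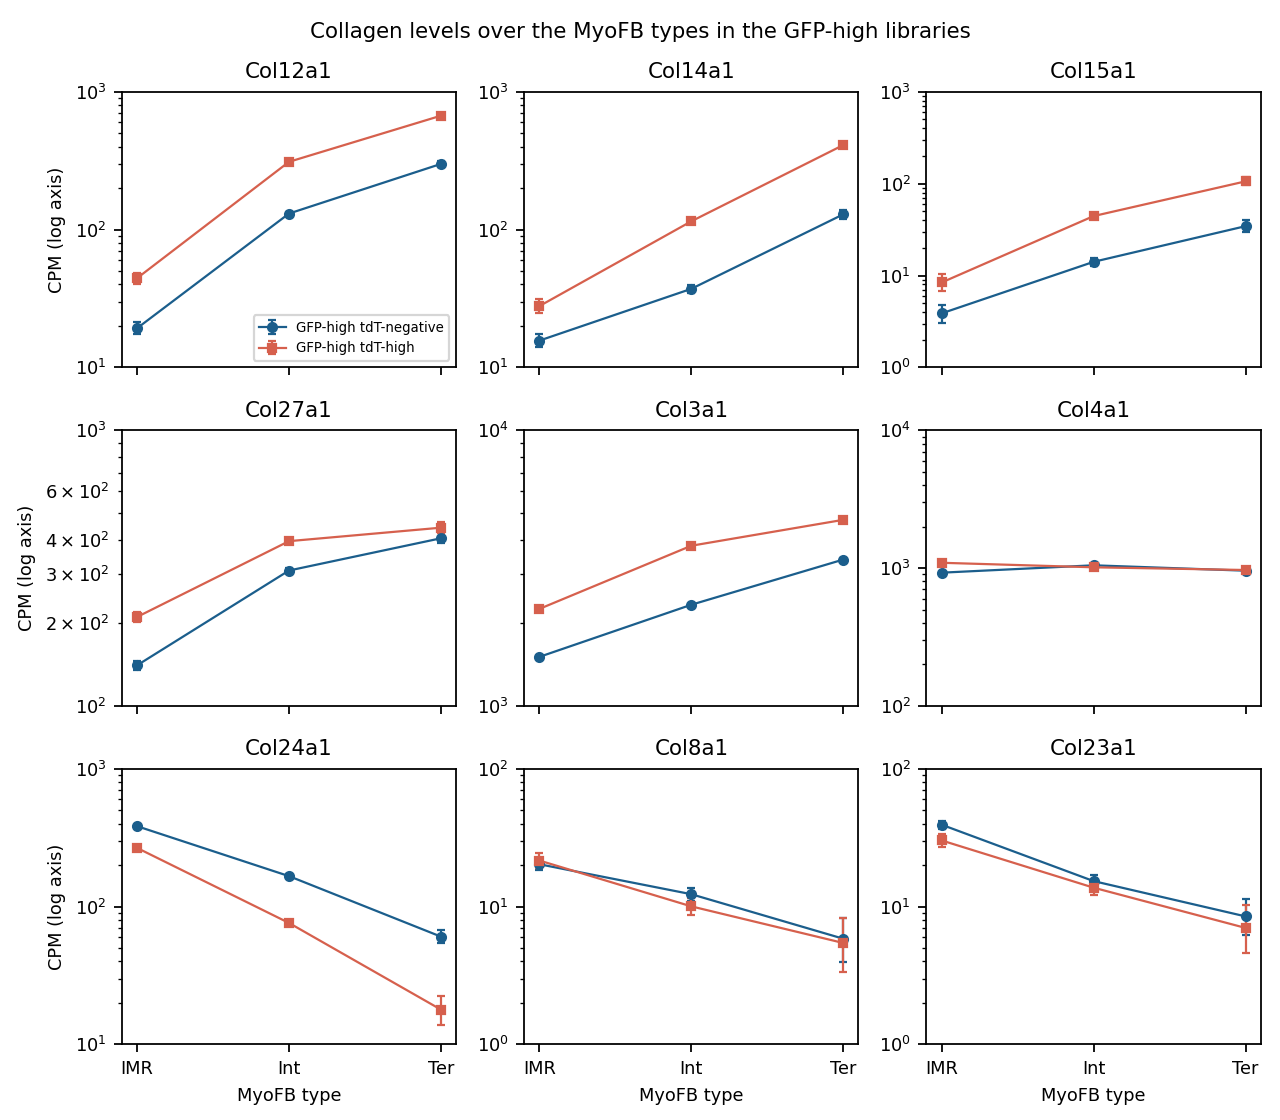
CPM (log axes, range differs by panel) of 9 collagen genes in the 3 MyoFB types of the 2 GFP-high libraries, tdT-negative (circles) and tdT-high (squares); bars are 95% Poisson intervals. Col12a1, Col14a1, Col15a1, Col27a1 and Col3a1 are higher to the right in both, Col24a1, Col8a1 and Col23a1 lower, and Col4a1 stays between 926 and 1092 CPM.

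In the GFP-high unmarked library, 25 of the 44 collagens met the minimum level. Of these, 12 were higher in MyoFB-Ter than in MyoFB-IMR, where 7.74% of all genes that met it were higher, and 5 were lower, where 9.86% of all were. In the marked library, 26 collagens met it, with 14 higher against 10.9% of all genes and 5 lower against 16.5% of all genes. Of the fibrillar chains that met it, 5 of 7 were higher and 1 was lower in the first library, and 6 of 8 and 1 in the second. Of the FACIT chains 4 of 5 and then 3 of 4 were higher, and the transmembrane chains that met it were 2 of 4 in each library, both lower. The median log2 ratio was 0.57 over the collagens and -0.03 over all genes in the first, and 0.77 and -0.09 in the second. With TMM scaling, 16 collagens were higher and 5 lower in the second, where the count over all genes went from 1265 higher and 1908 lower to 1617 higher and 1445 lower, and their median moved from -0.09 to 0.04. The 2 libraries share no cells, and 24 collagens met the minimum in both. Higher in both were 11, all but 1 of the list of 12 and all but 3 of the list of 14, where 5.56% of all genes were higher in both. Lower in both were 5, each library's whole list, where 7.33% of all genes were. MyoFB-Int lay between the other 2 types in both libraries for all 16 of these genes. Over all genes it did so for 516 of the 616 higher in both and 713 of the 812 lower in both. This order is thus usual for genes counted in both libraries and is not particular to collagens.

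The authors named these types from the same cells, so the order describes the types and tests nothing. MyoFB-Ter cells of the marked library also differed in other genes. Hhip stood at 1468 CPM there and at 319 CPM in MyoFB-Ter of the GFP-high unmarked library, Pdgfra at 24.6 against 209 CPM, and summed markers of pericytes at 566 against 149 CPM. Clustering of all cells without the collagen genes put 140 of the 190 MyoFB-Ter cells of the marked library, but 6 of the 303 of the GFP-high unmarked library, into 1 cluster. Without that cluster, 12 collagens were higher and 4 lower in the marked library, where 11.99% of all genes were higher and 21.1% lower, and 50 MyoFB-Ter cells were left. In the GFP-high unmarked library 11 were then higher and 5 lower, against 7.55% and 9.78% of all genes.

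The second comparison asked how cells with the Fgf18 lineage mark differ from unmarked cells within the GFP-high gate. Over all cells, 26 collagens met the minimum level. Of these, 2 were higher in the marked library, where 3.36% of all genes were higher, and 6 were lower, where 4.64% were lower. Col12a1 stood at 90.6 and 256 CPM in the GFP-high unmarked and marked libraries, 2.82-fold (2.73 to 2.92) higher, and Col27a1 at 211 and 331 CPM, 1.57-fold higher. The lower genes were Col13a1 (15.9 against 4.81 CPM), Col1a1 (3006 against 1281 CPM), Col14a1 (277 against 119 CPM), Col1a2 (3491 against 1603 CPM), Col23a1 (42.7 against 21.6 CPM) and Col24a1 (205 against 133 CPM). In sums over a library, fewer cells of a type and less RNA per cell cannot be told apart.

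The log2 ratios of the type I chains and Col14a1 had the opposite sign when AdvFB cells were left out. AdvFB gave 73.6% of the Col1a1 UMIs and 83.3% of the Col14a1 UMIs of the GFP-high unmarked library, and 1.82% and 2.57% of those of the marked library. Without AdvFB, the log2 ratio of Col1a1 was 0.48 in place of -1.23, that of Col14a1 1.14 in place of -1.20 and that of Col1a2 0.27 in place of -1.12. The count was then 5 higher and 3 lower, against 3.15% and 2.99% of all genes. With the types of both libraries weighted alike it was 7 higher and 1 lower, against 3.10% and 1.29%. The share of UMIs in collagens without AdvFB was 0.814% in the GFP-high unmarked and 1.08% in the marked library.

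Within each MyoFB type, Col1a1, Col12a1, Col14a1 and Col15a1 were higher in the marked cells. These 3 comparisons share the same 2 libraries and are given side by side. In MyoFB-IMR (467 marked and 1032 unmarked cells), 4 of 25 counted collagens were higher, against 2.72% of all genes, and 1 was lower, against 1.2%. In MyoFB-Int (801 and 1324 cells), 6 of 24 were higher, against 3.37%, and 1 was lower, against 2.69%. In MyoFB-Ter (190 and 303 cells), 9 of 27 were higher, against 8.48%, and 3 were lower, against 10.5%. The median log2 ratio over the counted collagens was 0.32, 0.27 and 0.47 in the 3 types and -0.04, -0.07 and -0.10 over all genes. Marked and unmarked cells of 1 name were not spread alike over the clusters. In MyoFB-Int, 1 cluster held 251 unmarked and 24 marked cells, and another 251 and 340. In MyoFB-IMR, 1 cluster held 680 unmarked and 190 marked cells, and another 5 and 57. The part of these mixtures in the ratios was not tested.

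Col12a1 stood at 44.4 against 19.2 CPM in MyoFB-IMR, 310 against 131 in MyoFB-Int and 670 against 299 in MyoFB-Ter, which are 2.31-fold (2.02 to 2.64), 2.37-fold (2.27 to 2.48) and 2.24-fold (2.10 to 2.38). Col14a1 stood at 27.9 against 15.7, 115 against 37.2 and 410 against 129 CPM, ratios of 1.78, 3.09 and 3.18. Col15a1 stood at 8.40 against 3.88, 44.4 against 14.1 and 106 against 34.5 CPM, ratios of 2.17, 3.15 and 3.07. All of these chains lie at the fibril surface or the basement membrane zone. Col1a1 stood at 873 against 550, 1416 against 865 and 1753 against 1100 CPM, ratios of 1.59, 1.64 and 1.59. Col24a1 was lower in the marked cells, at 266 against 383, 76.0 against 166 and 17.9 against 60.5 CPM, which are 1.44-fold (below the threshold), 2.19-fold and 3.38-fold. Col4a1 was level, with ratios of 1.18, 0.967 and 1.01. The other genes counted were Col13a1, lower in MyoFB-IMR (4.20 against 7.02 CPM), and Col3a1 (3810 against 2328 CPM) and Col16a1 (102 against 63.6 CPM), higher in MyoFB-Int.

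**Figure D4:**
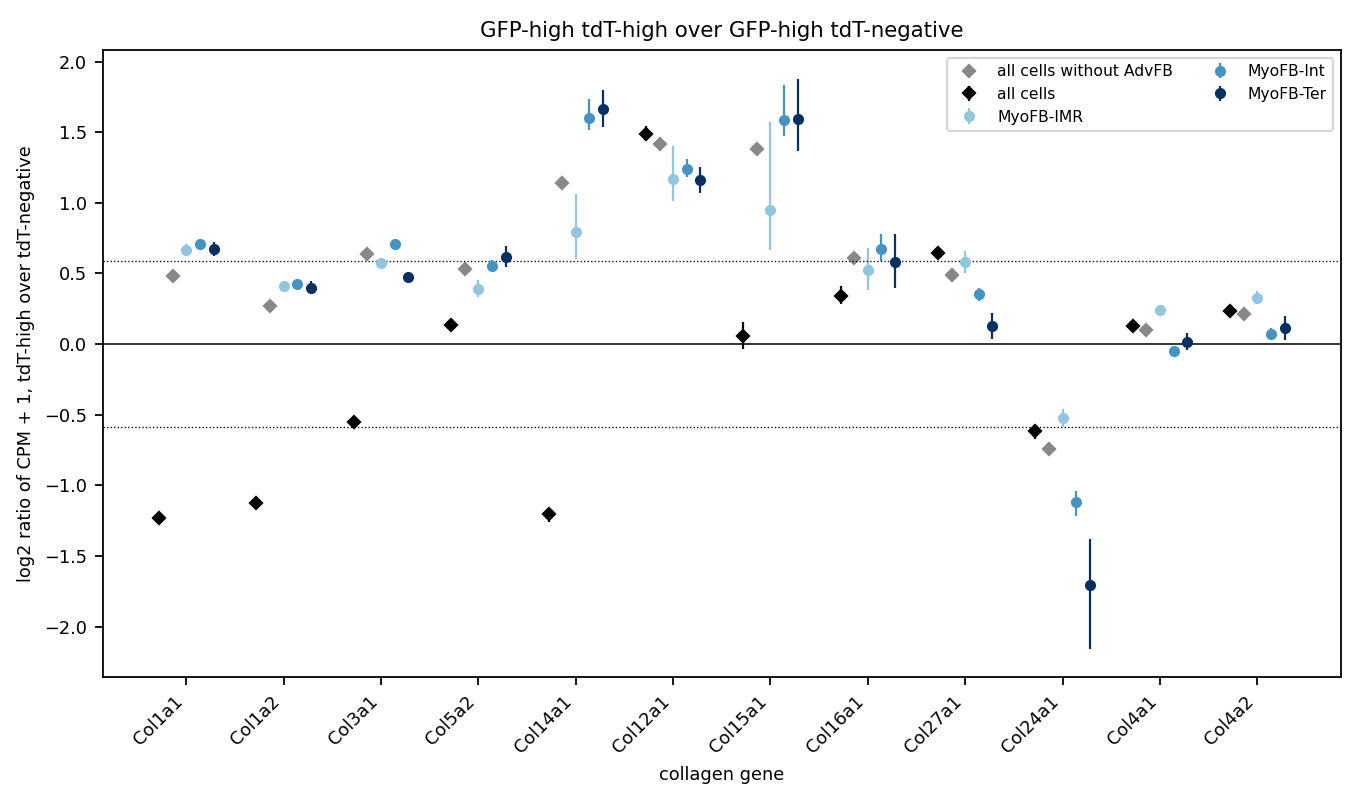
Log2 ratio of CPM + 1, GFP-high tdT-high over GFP-high tdT-negative, for 12 collagens: all cells (black diamonds), all cells without AdvFB (grey diamonds) and the 3 MyoFB types (circles, light to dark from MyoFB-IMR to MyoFB-Ter). Bars are 95% counting intervals (not drawn for the grey diamonds) and dotted lines mark 1.5-fold; Col1a1 lies at -1.23 over all cells and between 0.67 and 0.71 within the MyoFB types.

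In MyoFB-Ter the list of higher genes was longer. Col4a6 stood at 27.4 against 2.64 CPM (10.4-fold, 5.94 to 19.7), Col11a1 at 13.2 against 1.51 CPM (8.76-fold, 4.13 to 21.4) and Col4a5 at 69.4 against 15.1 CPM (4.61-fold, 3.58 to 5.99). Col6a3 (493 against 302 CPM) and Col5a2 (805 against 524 CPM) were also counted as higher, and Col6a4 (3.37 against 10.5 CPM) and Col25a1 (3.37 against 6.78 CPM) as lower. Col11a1 was at 17.1 CPM in the cluster of 140 marked cells and at 1.06 CPM in the 50 marked cells outside it. Without that cluster 9 of 23 counted collagens were higher and 3 lower, against 9.35% and 15.9% of all genes, with Col3a1 and Col18a1 among the higher in place of Col4a6 and Col11a1 and Col23a1 among the lower in place of Col25a1. The log2 ratio of Col11a1 was -0.30, that of Col25a1 0.55, that of Col4a6 1.27 and that of Col4a5 1.42. With TMM scaling 12 collagens were higher and 3 lower in MyoFB-Ter, where the count over all genes went from 954 higher and 1176 lower to 1153 higher and 885 lower.

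The third comparison asked how the GFP-high and GFP-low gates differ among tdT-negative cells. Over all cells, 29 collagens met the minimum, of which 7 were higher in the GFP-high library, where 17.6% of all genes were higher, and 7 were lower, where 11.9% were lower. The shares over all genes were thus large, and the gates held different types: 651 MatFB-Type 2 and 199 MatFB-Type 1 cells in the GFP-low library, 44 and 16 in the GFP-high unmarked library, and 21 to 23 cells of each MyoFB type against 303 to 1324. The lower genes were 3 transmembrane chains, Col18a1, the minor type IV chains Col4a5 and Col4a6, and Col6a6. Col13a1 stood at 373 against 15.9 CPM, 23.4-fold (22.0 to 25.0) lower in the GFP-high library, Col25a1 at 148 against 11.995 CPM, Col18a1 at 61.9 against 6.78 CPM and Col23a1 at 176 against 42.7 CPM. Col4a5 stood at 112 against 27.9 CPM, Col4a6 at 27.8 against 6.19 CPM and Col6a6 at 11.3 against 6.58 CPM.

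The higher genes were 3 fibrillar chains, Col6a4, Col8a1, Col12a1 and Col4a2. Col24a1 stood at 23.8 CPM in the GFP-low and 205 CPM in the GFP-high library (8.62-fold, 7.96 to 9.35), Col6a4 at 0.602 and 11.995 CPM, Col8a1 at 2.48 and 16.1 CPM, Col12a1 at 24.1 and 90.6 CPM and Col27a1 at 57.8 and 211 CPM. Col5a1 (220 and 399 CPM) and Col4a2 (285 and 461 CPM) were nearer the threshold. Types I and III were not counted, with Col1a1 at 2857 and 3006 CPM, Col1a2 at 3080 and 3491 CPM and Col3a1 at 3633 and 4960 CPM, nor was Col14a1 at 269 and 277 CPM. The median over the counted collagens was 0.07 and over all genes 0.15. With TMM scaling the latter was 0.03, 6 collagens were higher and 9 lower, and the count over all genes went from 2051 higher and 1388 lower to 1634 higher and 1674 lower. Without AdvFB 11 collagens were higher and 8 lower, against 20.5% and 13.2% of all genes, and with the types weighted alike 8 and 3, against 8.86% and 7.48%.

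Within AdvFB (328 GFP-high unmarked and 148 GFP-low cells), 28 collagens were counted. Higher in the GFP-high library were 5, against 8.3% of all genes, and lower were 6, against 9.59%. Col8a1 (30.1 against 9.78 CPM), Col5a3 (44.2 against 19.3 CPM), Col3a1 (25624 against 16178 CPM), Col23a1 (85.4 against 54.1 CPM) and Col1a2 (19482 against 12509 CPM) were higher. Col4a6 (26.6 against 100 CPM), Col4a5 (110 against 237 CPM), Col24a1 (62.8 against 133 CPM), Col27a1 (28.7 against 54.1 CPM), Col6a6 (45.4 against 78.2 CPM) and Col13a1 (6.08 against 10.3 CPM) were lower. The cells of this name were not alike in the 2 libraries. In the GFP-low library, 54 of the 148 cells fell into a cluster with 1.62% of UMIs in collagens, Col1a1 at 3496 CPM and Col6a6 at 158 CPM, while the other 94 had 6.69% and 17682 CPM. Summed smooth muscle markers (6 genes, none at 0) were 687 CPM in GFP-low AdvFB and 31.5 CPM in GFP-high unmarked AdvFB, and those of pericytes (6 genes, none at 0) 394 and 127 CPM. Of the 5 higher genes, Col5a3 alone was counted as higher both among cells with Xist UMIs alone and among cells with Y-linked UMIs alone. Without that cluster 2 collagens were higher and 7 lower, against 6.41% and 6.66% of all genes. Without it and the cluster of 16 Col8a1-high cells, 0 were higher and 7 lower, against 6.26% and 7.07%, with Col1a1 and Col3a1 at a log2 ratio of 0.19.

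Within MatFB-Im,Cuff (110 and 205 cells), 18 of 29 counted collagens were higher in the GFP-high unmarked library, against 17.1% of all genes, and 4 were lower, against 11.9%. The fibrillar genes Col1a1 (4476 against 1819 CPM), Col1a2 (5198 against 2198 CPM), Col3a1 (4369 against 2151 CPM) and Col5a1 (451 against 173 CPM) were higher, as were the beaded chains Col6a3 (1013 against 371 CPM), Col6a1 (889 against 581 CPM) and Col6a2 (1000.5 against 657 CPM). The largest ratios belonged to Col24a1 (30.4 against 0.711 CPM from 3 UMIs, a ratio of 42.8 with an interval of 13.98 to 213), Col15a1 (98.0 against 5.69 CPM, 17.2-fold), Col7a1 (92.7 against 9.48 CPM, 9.78-fold) and Col14a1 (476 against 66.4 CPM, 7.17-fold). Col8a1, Col23a1, Col4a6, Col4a5, Col26a1, Col27a1 and Col5a3 made up the rest, and the interval of Col5a3 (0.811 to 3.09) included no difference. Lower were Col25a1 (4.35 against 80.8 CPM, 18.6-fold), Col13a1 (134 against 352 CPM, 2.63-fold), Col18a1 (26.6 against 41.0 CPM) and Col8a2 (3.86 against 6.87 CPM, with an interval of the ratio from 0.222 to 1.26). Col6a1, Col6a2, Col8a1, Col27a1, Col18a1 and Col8a2 were not counted as such in both the cells with Xist UMIs alone and those with Y-linked UMIs alone. With TMM scaling 15 collagens were higher, without Col6a1, Col6a2 and Col5a3, and 4 lower, and the count over all genes went from 1921 higher and 1334 lower to 1728 higher and 1540 lower.

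Cells of this name also came from different clusters in the 2 libraries. Of the 110 cells of the GFP-high unmarked library 91 lay in 1 cluster, and of the 205 cells of the GFP-low library 18 did. Col7a1 was at 116 and 64.9 CPM inside that cluster in the 2 libraries and at 6.89 and 4.16 CPM outside it, and Col14a1 at 478 and 544 CPM inside. Among the cells of that cluster alone, 8 collagens were higher and 4 lower, against 18.2% and 17.3% of all genes. The log2 ratio was then 0.13 for Col1a1, -0.06 for Col3a1, -0.19 for Col14a1, 0.82 for Col7a1 and 1.25 for Col13a1. Among the cells outside it, 14 were higher and 4 lower, against 24.9% and 17.3%, in a comparison of 19 with 187 cells. Summed AdvFB markers (8 genes, 2 at 0 in each library) were 2229 CPM in the GFP-high unmarked and 938 CPM in the GFP-low cells of this name, and summed MatFB markers (none at 0) 4945 and 11983 CPM. Their part in the differences was not tested.

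**Figure D5:**
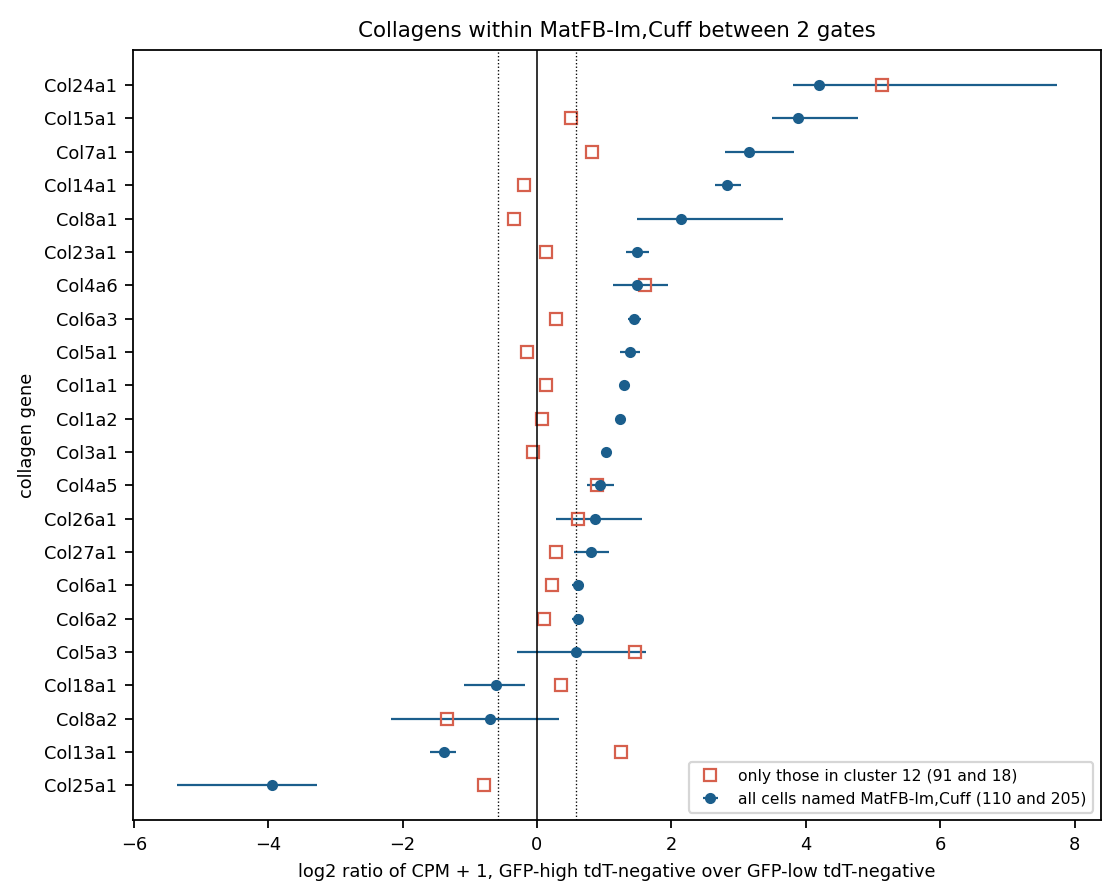
Log2 ratio of CPM + 1 within MatFB-Im,Cuff, GFP-high over GFP-low among tdT-negative cells, for the 22 collagens counted as higher or lower: all cells of that name (filled circles with 95% counting intervals) and those of cluster 12 alone (open squares, 91 and 18 cells). Dotted lines mark 1.5-fold; Col1a1, Col3a1 and Col14a1 lie at 1.30, 1.02 and 2.82 over all these cells and at 0.13, -0.06 and -0.19 within the cluster.

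The other genes of collagen production, from lists chosen by function, are given for the same comparisons. Between MyoFB-Ter and MyoFB-IMR the shares over all genes are those above, 7.74% higher and 9.86% lower in the GFP-high unmarked library and 10.9% and 16.5% in the marked library. Of 22 genes for hydroxylation, folding and glycosylation, 3 were higher in MyoFB-Ter than MyoFB-IMR and none lower in the GFP-high unmarked library, with a median log2 ratio of 0.10, and 4 and none in the marked library, with a median of 0.05. P3h2, a prolyl 3-hydroxylase that acts on type IV collagen, stood at 352 against 79.9 CPM and at 476 against 143 CPM, and P4ha3, a prolyl 4-hydroxylase subunit, at 253 against 122 and 283 against 173 CPM. Of 16 secretion and processing genes, 15 met the minimum in both, with 2 higher and 3 lower in the first library and 4 and 3 in the second. Adamts2, which removes the N-propeptide of fibrillar procollagens, stood at 505 against 196 and 606 against 269 CPM. Of 10 receptors, 7 met it, with 1 higher and 1 lower, and 2 and 3. The integrin chain Itga1 stood at 80.0 against 181 and 59.8 against 151 CPM, and the discoidin domain receptor Ddr1 at 30.3 against 11.9 and 29.3 against 14.8 CPM.

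Between marked and unmarked cells of 1 MyoFB type, the counts of the same lists are read beside 2.72%, 3.37% and 8.48% of all genes higher and 1.2%, 2.69% and 10.5% lower. The biosynthesis genes counted as higher were 1, 0 and 2 of 22 in MyoFB-IMR, MyoFB-Int and MyoFB-Ter, and none was lower. The secretion and processing genes were 0, 0 and 2 higher and 0, 0 and 1 lower, and the receptors 0, 1 and 1 higher and 0, 0 and 1 lower. P3h2 was the gene counted in MyoFB-IMR (143 against 79.9 CPM), and Adamts14, another procollagen N-proteinase, stood at 39.9 against 15.4 CPM in MyoFB-Ter.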

How the data were processed

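The droplet chemistry was 10x 3' v3.1, per the labels' protocols. Reads were processed with Cell Ranger 7.0.0 on mm10, per the submitters' processing notes. The authors deposited 1 matrix of raw UMI counts, with the gate, cell type name and percent of mitochondrial UMIs of each cell, the last a percent in the authors' deposited cell table. No source used here says how cells and types were called.

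UMI counts were summed over the cells of each gate and type and divided by the group's total (CPM). Levels are given for groups of at least 20 cells, and comparisons within a type were made where both libraries had at least 100 cells of it. A gene with at least 10 UMIs over all cells and a mean of at least 5 CPM over both groups was counted as higher or lower from a 1.5-fold ratio of CPM + 1. With 1 library per gate no test was made. Intervals (95%) are exact: Poisson for a level, conditional binomial for a ratio and Clopper-Pearson for a share. They, and the 3 counts that a count of 0 allows, cover counting error only. Shares of cells with a UMI were taken after thinning each cell to 5000 UMIs.

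Cells were clustered with the 44 collagen genes left out (2000 variable genes, 30 principal components, 15 neighbours, Leiden resolution 1.0, 15 clusters). Positions came from GENCODE M21 on GRCm38, in which 30176 symbols and all 44 collagens were found. Promoter windows came from RefSeq on GRCm38.p6, with 35 of the 44 genes matched. Values were to be printed for collagens with a mean of at least 20 CPM, for those reaching 20 CPM in a type, and for the 3 highest and 3 lowest ratios of a comparison, with at most 4 members named from each further list by size of ratio. The members, lists and comparisons were chosen with earlier results of these data known. Scripts were tested on simulated data. Alternatives covered scaling (TMM from edgeR 4.0.16, size factors from DESeq2 1.42.0, each cell weighted equally, totals without mitochondrial, ribosomal protein and haemoglobin genes), pseudocount, minimum level, thinning, mitochondrial percent, cells by Xist or Y-linked UMIs, cell mix and clusters. Python 3.11.15, scanpy 1.11.5, scipy 1.17.1 and R 4.3.3 were used.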

Additional observations from a re-analysis of the deposited data

Results flagged for a closer look

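For 4 collagens the log2 ratio of the GFP-high tdT-negative over the GFP-low tdT-negative library had opposite signs in AdvFB and MatFB-Im,Cuff, past 1.5-fold in each. It was -1.87 in AdvFB and 1.49 in MatFB-Im,Cuff for Col4a6, and -1.10 and 0.94 for its neighbour Col4a5. It was -1.07 and 4.20 for Col24a1, where the GFP-low MatFB-Im,Cuff cells held 3 UMIs, and -0.89 and 0.80 for Col27a1. Cells of both names lay partly in different clusters in the 2 libraries, as described above. In MatFB-Im,Cuff, Col27a1 was not counted as higher in both the cells with Xist UMIs alone and those with Y-linked UMIs alone. Each gate had 1 library, and the difference between the types was not tested.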

How the results depend on the processing

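No paired analysis was possible because each gate has 1 library. Of the recomputed counts of collagens, 192 stayed within 1.5 times of the value given and 32 did not. Over all cells, GFP-high over GFP-low, the higher genes were 12 among cells with Xist UMIs alone and 11 without AdvFB, and the lower genes 3 with types weighted alike. Over all cells, tdT-high over tdT-negative, the higher genes were 5 without AdvFB and 7 with types weighted alike, and the lower genes 10 with no minimum level, 3 without AdvFB and 1 with types weighted alike. There Col1a1 went to 0.48 without AdvFB and 0.69 with types weighted alike, and Col14a1 to 1.14 and 1.51. In MyoFB-IMR, tdT-high over tdT-negative, 8 were higher among cells with Xist UMIs alone. The lower genes there were 0 with a pseudocount of 5 CPM, with a minimum of 20 CPM and among cells with Xist UMIs alone, and 2 with no minimum and after thinning. In MyoFB-Int the lower genes were 2 with no minimum, after thinning and among cells with Xist UMIs alone, and 3 among cells with Y-linked UMIs alone. In MyoFB-Ter they were 5 with no minimum and 1 with a minimum of 20 CPM. There Col25a1 went to 0.56 after thinning, 0.48 among cells with Xist UMIs alone and 0.55 without cluster 11, and Col11a1 to -0.30 without it. In AdvFB the higher genes were 8 with no minimum, 9 and 3 among cells with Xist or Y-linked UMIs alone, 2 without cluster 13 and 0 without clusters 13 and 14. There Col8a1 went to -0.81 among cells with Xist UMIs alone and -1.85 without both clusters. In MatFB-Im,Cuff 8 were higher within cluster 12, and 2 lower with a pseudocount of 5 CPM and after thinning. There Col13a1 went to 1.25 and Col3a1 to -0.061 within cluster 12, and Col8a2 to 0.27 after thinning. For MyoFB-Ter over MyoFB-IMR the lower genes were 9 with no minimum and 2 with a minimum of 20 CPM in the tdT-negative library, and 11 and 1 in the tdT-high library. The alternatives on AdvFB cells and on clusters 11 to 14 were chosen after seeing the data. Dropping the minimum admits more genes and raising it fewer, and the AdvFB and cluster alternatives leave out cells; for the others the cause was not tested. Beside the counts, 714 recomputed ratios, levels and shares stayed within the counting interval, 339 left it with the same sign and 13 had the other sign. In groups of 20 to 50 cells a level of a few CPM rests on a few UMIs.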

Other observations

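Between the tdT-negative gates, over all cells, 17.6% of all genes were higher in the GFP-high library and 11.9% lower. Of 22 biosynthesis genes 6 were higher and 4 lower. P4ha3, a prolyl 4-hydroxylase subunit, stood at 154 CPM against 15.8 in the GFP-low library, and P3h2, a prolyl 3-hydroxylase, at 159 against 17.0 CPM. Tmem38b, an ion channel of the endoplasmic reticulum, stood at 13 against 91.8 CPM. Of 14 counted secretion and processing genes 4 were higher and 1 lower, with Pcolce2, an enhancer of procollagen processing, at 88.3 against 468 CPM. Of 6 counted receptors 1 was higher and 3 lower, with the collagen receptor Ddr2 at 405 against 142 CPM and the endocytic receptor Mrc2 at 84.2 against 249 CPM.

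Within MatFB-Im,Cuff, 7 of 14 counted secretion and processing genes were higher in the GFP-high library and none lower, where 17.1% of all genes were higher and 11.9% lower. Adamts14, a procollagen N-proteinase, stood at 28.5 against 2.84 CPM, and Ctsk, a collagen-degrading protease, at 87.9 against 20.9 CPM. As for the collagens, the cells of this name lay mostly in different clusters in the 2 libraries.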
